A study of Homo sapiens with 4 samples.

Results

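The comparison described here sets SUM159-R cells given paclitaxel at 500 nM for 24 h against the same cells given DMSO, the solvent, for 24 h. SUM159 is a human triple-negative breast cancer line, and SUM159-R is its paclitaxel-resistant derivative, with the genotype given as WT and a maintenance dose of 150 nM paclitaxel. The remaining cells received enzastaurin, an inhibitor of protein kinase C, at 2.5 µM without paclitaxel, or 2.5 µM enzastaurin together with 500 nM paclitaxel (the combination), also for 24 h. The sources used here do not give whether the maintenance drug was withdrawn before DMSO was added, whether SUM159-R is a single clone or whether a library pools cultures. Libraries with or without paclitaxel are therefore, below, those with or without the 500 nM dose. Each of the 4 conditions is 1 RNA-seq library, so no difference below can be set against a spread between cultures, and no test was made. Genes were kept when their mean over the 4 libraries was 500 counts or more, which left 6986 of 20289 genes, and were ranked by the log2 ratio of counts scaled for depth. Each ratio has an exact 95% interval that covers counting error only, since without molecular identifiers reads are not independent molecules. A gene is called higher or lower when its ratio is 1.5-fold or more (0.58 on the log2 scale) with an interval that excludes no change. A second, lower limit of 0.32 on the log2 scale, with the same demand on the interval, is used to describe gene lists and is called the list limit.

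Paclitaxel binds beta-tubulin in the microtubule wall, stabilises microtubules and blocks dividing cells in mitosis. Cells can also sense the pool of free tubulin dimers and adjust the stability of tubulin mRNAs to it, and the efflux pump encoded by ABCB1 exports paclitaxel. NRF2 is a transcription factor that is degraded in unstressed cells and, when released, binds antioxidant response elements beside genes for glutathione synthesis, haem breakdown, iron storage and carbonyl reduction. YAP is a co-activator that binds TEAD factors and drives matrix-related and cytoskeletal genes such as CCN1 and AXL in spread cells.

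The DMSO and paclitaxel libraries held 22576953 and 24699948 counts, the enzastaurin and combination libraries 21959564 and 18236527. Of the markers of the mesenchymal class, VIM, CD44, FN1 and SPARC summed to 3278 FPKM in DMSO and 2935 FPKM in paclitaxel. Of the receptors whose absence defines the triple-negative class, PGR had 0 counts in every library and ESR1 0 to 3, while ERBB2 was at 24.97 FPKM in DMSO and 20.84 FPKM in paclitaxel. The 6 markers of leukocytes, endothelium and hepatocytes summed to 0.64 FPKM in DMSO and 0.67 FPKM in paclitaxel, with CD3E at 0 counts in each library. The 7 luminal markers summed to 384 FPKM in DMSO and 381 FPKM in paclitaxel, nearly all of it from KRT8 and KRT18, with EPCAM at 0 and 5 counts. In bulk RNA, fewer cells of one state and less RNA per cell cannot be told apart.

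Few genes differed by 1.5-fold. Paclitaxel over DMSO gave 13 genes called higher, 0.186% of those kept, and 6 called lower, 0.0859%. At the list limit there were 60 higher genes (0.859%) and 86 lower genes (1.23%), and 97.9% of genes lay within it. The middle 90% of log2 ratios ran from -0.21 to 0.19, with a standard deviation of 0.13 across genes. The median counting error of a ratio was 0.0518 on the same scale, and 2870 of 6986 intervals excluded no change. Enzastaurin over DMSO, which shares the DMSO library, had 0 genes higher at 1.5-fold (0.0%), 5 lower (0.0716%) and 2696 intervals that excluded no change.

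**Figure D1:**
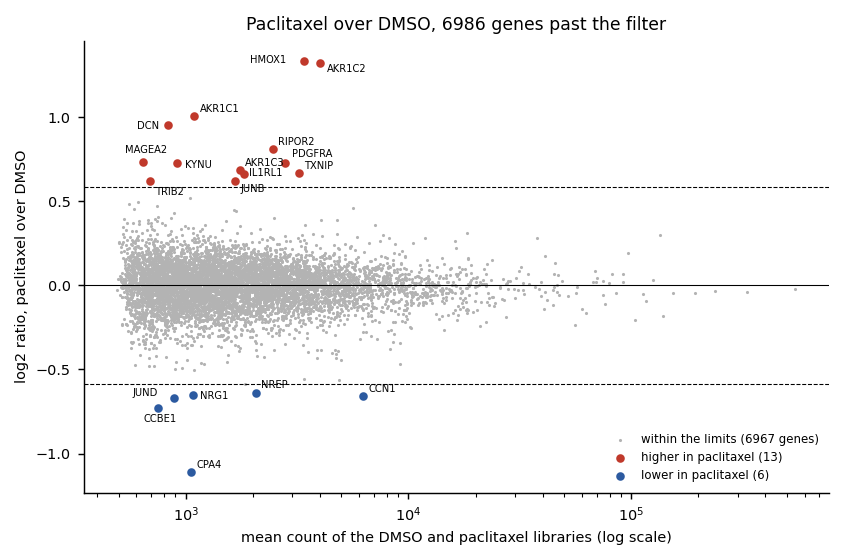
Log2 ratio of paclitaxel over DMSO (vertical axis) against the mean count of both libraries (log scale) for 6986 genes, with dashed lines at 1.5-fold. The 13 higher genes (red) and 6 lower genes (blue) are named and stand apart from the grey points, 1 for each remaining gene.

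The highest ratios belonged to genes of haem and carbonyl metabolism. HMOX1 (ENSG00000100292, chromosome 22, 35380361 to 35394214, plus strand), the inducible haem oxygenase, had 1810 counts in DMSO, 2345 in enzastaurin, 5014 in paclitaxel and 6167 in the combination, a log2 ratio of 1.33 for paclitaxel over DMSO. Both libraries with paclitaxel were above both without it, also after scaling, at 202 and 342 against 80.2 and 106 CPM (counts scaled to library size). AKR1C1, AKR1C2 and AKR1C3, aldo-keto reductases that reduce steroids and other carbonyls, lie next to one another on chromosome 10, between 4963253 and 5107686. AKR1C2 was at 94.7 CPM in DMSO, 138 in enzastaurin, 237 in paclitaxel and 398 in the combination, a log2 ratio of 1.32 for paclitaxel over DMSO. AKR1C3 was at 55.9, 68.7, 90.0 and 133 CPM in the same order, a log2 ratio of 0.69 (0.59 to 0.79). All members of the cluster thus ran in the same order over the 4 libraries, lowest in DMSO and highest in the combination. The longest transcripts of AKR1C1 and AKR1C2 align at 97.1% identity, so their reads may be split between them. Summed, they had 2817 counts in DMSO and 7381 in paclitaxel, a log2 ratio between 1.19 and 1.31.

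The wider NRF2 list was higher on the whole. Of its 28 genes, 26 passed the filter, 24 had a ratio above 0 and the median log2 ratio was 0.19. Over all 6986 genes kept, 3518 were above 0 and the median was 0.00081. Called higher at 1.5-fold were 4 members (HMOX1 and the AKR1C genes), at the list limit 7, and none was lower at the list limit. Among all genes kept 0.186% were higher at 1.5-fold, 0.859% higher at the list limit and 1.23% lower at the list limit. Between those limits were the genes of glutathione supply. SLC7A11, which imports cystine, was at 199 CPM in DMSO, 272 in enzastaurin, 274 in paclitaxel and 380.5 in the combination, a log2 ratio of 0.46 (0.40 to 0.51) for paclitaxel over DMSO. GCLC and GCLM, the catalytic and modifier subunits of glutamate-cysteine ligase, were at 0.45 (0.28 to 0.62) and 0.35 (0.26 to 0.45). The ferritin heavy and light chains FTH1 and FTL were at 0.30 (0.29 to 0.31) and 0.17 (0.15 to 0.19), and the quinone reductase gene NQO1 at 0.28 (0.24 to 0.32). Of the pentose phosphate pathway, PGD was at 0.07, TKT at 0.03 and TALDO1 at -0.0017, all close to 0. The lowest member was the malic enzyme gene ME1 at -0.08 (-0.15 to 0.0032). Below the filter, OSGIN1 had 139 counts in DMSO and 177 in paclitaxel, and AKR1B10 had 0 and 2.

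**Figure D2:**
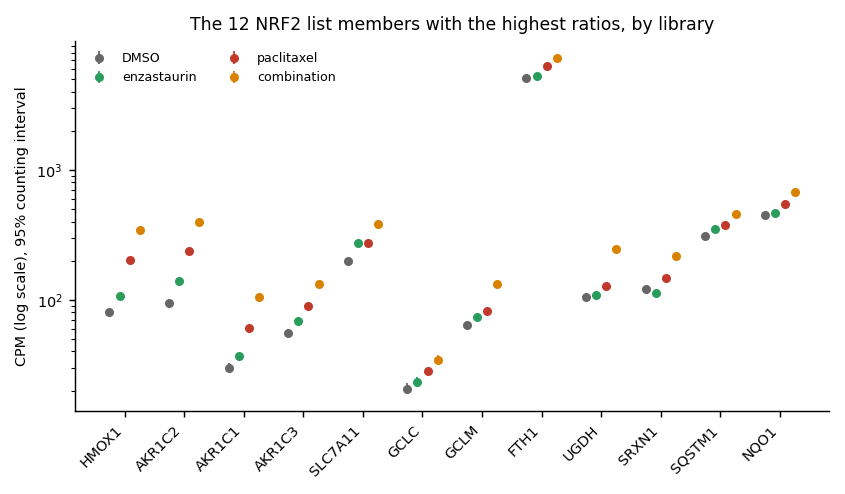
Levels in CPM (log scale) of the 12 NRF2 list members with the highest ratios, in the DMSO, enzastaurin, paclitaxel and combination libraries, with 95% intervals for counting error that are mostly smaller than the points. The genes were picked by their ratio of paclitaxel over DMSO, so paclitaxel stands above DMSO for each by choice. The log2 ratios run from 0.28 for NQO1 up to 1.33 for HMOX1.

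Windows of 300 bases around RefSeq transcription starts (GRCh38.p14, 250 before and 50 after) were found by symbol for 5827 of the 6986 genes, and HMOX1 was not among them. The antioxidant response element core, TGACNNNGC on either strand, was in a window of 6 of 19 matched NRF2 list members (31.6%) and of 1162 of all 5827 matched genes (19.9%). The TEAD motif GGAATG was in 7 of 14 matched YAP and TEAD list members and in 876 of all matched genes. Windows of 3 genes show the motifs beside genes at either end of the ranking, each as the 250 bases before the start, 5′ to 3′ on the gene's strand, with the match in capitals. GCLM (chr1:93909431-93909680, minus strand) is the highest NRF2 list member with the core, AXL (chr19:41226505-41226754, plus strand) the lowest YAP and TEAD list member with the TEAD motif, and CPA4 (chr7:130292911-130293160, plus strand) the gene with the lowest ratio.
GCLM: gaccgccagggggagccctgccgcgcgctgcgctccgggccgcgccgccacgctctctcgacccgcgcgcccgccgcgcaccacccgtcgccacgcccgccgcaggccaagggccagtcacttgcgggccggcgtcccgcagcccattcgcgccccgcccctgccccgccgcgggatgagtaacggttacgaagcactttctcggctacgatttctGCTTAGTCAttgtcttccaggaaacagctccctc
AXL: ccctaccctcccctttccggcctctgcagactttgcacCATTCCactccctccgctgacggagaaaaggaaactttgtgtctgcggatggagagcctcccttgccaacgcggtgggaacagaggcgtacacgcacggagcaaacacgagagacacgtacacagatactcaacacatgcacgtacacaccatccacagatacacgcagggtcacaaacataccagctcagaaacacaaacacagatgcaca
CPA4: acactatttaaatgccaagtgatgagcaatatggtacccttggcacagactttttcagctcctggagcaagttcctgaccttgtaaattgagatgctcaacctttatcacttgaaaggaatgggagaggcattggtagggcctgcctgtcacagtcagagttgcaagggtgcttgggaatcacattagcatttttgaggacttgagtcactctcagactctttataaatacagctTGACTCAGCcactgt
The GCLM and AXL matches read on the opposite strand. The AXL window precedes a RefSeq start inside the GENCODE span of the gene and lies outside its exons. In CPA4 the core, TGACNNNGC, overlaps a match to the AP-1 motif TGANTCA, which was in a window of 6.59% of matched genes, and the window also holds the TEAD motif. The AXL window also holds the core on the opposite strand, in letters not capitalised here. The core was thus present beside CPA4 and AXL, both with ratios below 0, and matched NRF2 list members with the core had a median log2 ratio of 0.14 against 0.28 for those without. A match to so short a motif is a description of the letters and does not show binding.

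The other 9 genes called higher serve several roles. DCN, which encodes the matrix proteoglycan decorin, had 530 counts in DMSO, 717 in enzastaurin, 1128 in paclitaxel and 749 in the combination, a log2 ratio of 0.95 (0.80 to 1.10). RIPOR2, which encodes an inhibitor of the small GTPase RHOA, had 1678, 1377, 3242 and 890 counts in the same order, a log2 ratio of 0.81 (0.73 to 0.90). For RIPOR2 the paclitaxel library was the highest of all and the combination library the lowest. PDGFRA, the alpha receptor for platelet-derived growth factor, was at 87.3, 90.2, 145 and 124 CPM, a log2 ratio of 0.73 (0.65 to 0.81), and at 0.77 when summed with the overlapping gene ENSG00000282278. KYNU, the kynureninase of tryptophan breakdown, was at 28.8, 34.6, 47.6 and 38.1 CPM, a log2 ratio of 0.73 (0.59 to 0.87). TXNIP, which encodes an arrestin-related protein that binds thioredoxin and lowers glucose uptake, was at 103, 105, 165 and 152 CPM, a log2 ratio of 0.67 (0.60 to 0.74). TXNIP differed little between the libraries without paclitaxel, and both with it were higher. IL1RL1, the receptor for interleukin 33, was at 0.66 (0.57 to 0.76), and IL18R1, a receptor chain for interleukin 18, at 0.43. Their annotated spans overlap on the same strand of chromosome 2, so reads may be shared between them. JUNB, an AP-1 subunit, stood at 0.62 (0.52 to 0.72), and TRIB2, a Tribbles pseudokinase, at 0.62 (0.46 to 0.78) and at 0.83 in the deposited FPKM with a pseudocount of 1. MAGEA2, a cancer-testis antigen, was at 0.73 (0.57 to 0.90), but summed with its near-identical copy MAGEA2B it was at 0.05 (-0.02 to 0.13). The MAGEA2 call therefore does not hold for the pair of copies. Just under the limit were RNF145, an ER ubiquitin ligase, at 0.52 and TAF4B, a TFIID subunit, at 0.49, and just inside it TRIB2 and JUNB.

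The lowest ratio was that of CPA4 (ENSG00000128510, chromosome 7, 130293134 to 130324180, plus strand), a secreted carboxypeptidase. CPA4 was at 61.9 CPM in DMSO, 53.4 in enzastaurin, 28.7 in paclitaxel and 5.60 in the combination, a log2 ratio of -1.11 (-1.24 to -0.98) for paclitaxel over DMSO. CCBE1, which encodes a secreted protein needed for lymphatic growth, followed with 899 counts in DMSO and 598 in paclitaxel, at -0.73 (-0.88 to -0.58). JUND, an AP-1 subunit, was at 46.5 CPM in DMSO, 39.1 in enzastaurin, 29.2 in paclitaxel and 9.21 in the combination, a log2 ratio of -0.67 (-0.81 to -0.53). JUND is GC-rich (69.7% of its transcript) and was under the limit, at -0.53, after a trend in GC content and length was removed, and at -0.52 in the deposited FPKM. The matricellular gene CCN1 (7371 counts in DMSO, 5147 in paclitaxel) was at -0.66 (-0.71 to -0.60). NRG1, the ERBB3 and ERBB4 ligand neuregulin 1, had 1262 counts in DMSO, 1097 in enzastaurin, 884 in paclitaxel and 346 in the combination, a log2 ratio of -0.65 (-0.78 to -0.53). NREP was at -0.64 (-0.73 to -0.55), with 2420 counts in DMSO and 1706 in paclitaxel. For each of these 6 genes, picked as lower in paclitaxel than in DMSO, the combination level was the lowest of the 4 libraries. Just outside the limit were the matrix genes CCDC80 at -0.58 (-0.68 to -0.49) and TNC at -0.56 (-0.62 to -0.51), and just inside it NREP and NRG1.

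The next of the 15 lowest genes were TRIM58, a ubiquitin ligase, at -0.56, PLAU, the urokinase that activates plasminogen, at -0.50, and CCN4, a matricellular relative of CCN1, at -0.50. MGLL, which hydrolyses monoacylglycerols, was at -0.48 (-0.63 to -0.33), MICALL2 at -0.48 and the kinesin gene KIFC2 at -0.47. ENSG00000285238 was at -0.49, but it overlaps CHD4 and NOP2, and the 3 genes summed were at -0.01 (-0.04 to 0.02). MGLL was lower in all 3 drug libraries than in DMSO, at 21.9 CPM in enzastaurin, 25.5 in paclitaxel and 23.7 in the combination against 35.6 CPM.

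**Figure D3:**
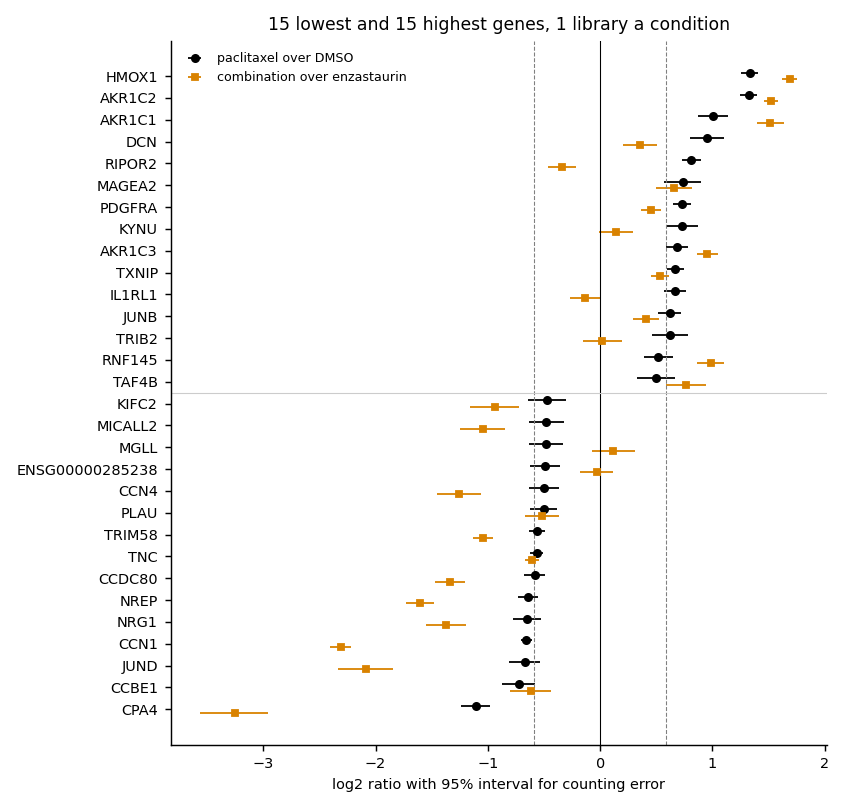
Log2 ratio with 95% counting interval of the 15 lowest and 15 highest genes in paclitaxel over DMSO (black circles), with combination over enzastaurin (orange squares) beside it and dashed lines at 1.5-fold. HMOX1 and AKR1C2 lead on both, CPA4 is lowest on both, and RIPOR2 and IL1RL1 lie above 0 on one and below 0 on the other.

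Matrix genes made up the list with the lowest median. Of 26 collagen and matrix genes 17 passed the filter, 11 were below 0, 7 were lower at the list limit and none was higher at that limit, with a median log2 ratio of -0.24. Of all 6986 genes kept 3468 were below 0, and at the list limit 1.23% were lower and 0.859% higher. The lower members were TNC (tenascin C), COL1A1 at -0.45 (-0.56 to -0.35), COL5A1 at -0.43 (-0.50 to -0.37), LAMA3, a laminin chain, at -0.42, COL12A1 at -0.38, LOXL2, a collagen cross-linking oxidase, at -0.38 and SPARC, a collagen-binding protein, at -0.38. COL1A1 was at 75.2 CPM in DMSO, 79.0 in enzastaurin, 55.0 in paclitaxel and 44.1 in the combination, below the DMSO level in both libraries with paclitaxel. In the deposited FPKM with a pseudocount of 1, COL1A1 was at -0.14. Some list members did not share this, with FN1 (fibronectin) at 0.02, COL6A3 at 0.13 (0.09 to 0.16) and COL4A2 at 0.01.  With a mean of 100 counts as the filter the median was -0.18 over 21 members, and with no mean filter it was -0.10 over 24. Other secreted or surface matrix genes past the lower limit, chosen after their values were seen, were LOXL1 at -0.47, FSTL1 at -0.43, the proteoglycan genes CSPG4 at -0.43, HSPG2 at -0.40 and SDC3 at -0.39, and ABI3BP at -0.40. The matrix proteoglycan gene DCN, also outside the list, went the other way at 0.95 (0.80 to 1.10). Of list members below the filter, LAMB3 was at 0.40 (0.11 to 0.70) and FBN1 at -0.27 (-0.52 to -0.02).

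YAP and TEAD targets leaned the same way, with 20 of 23 genes past the filter, 15 of them below 0 and a median of -0.10. Of all 6986 genes kept 3468 were below 0. CCN1 was lower at 1.5-fold, and AXL and CRIM1 also at the list limit. Among all genes kept 0.0859% were lower at 1.5-fold and 1.23% at the list limit. AXL, a receptor tyrosine kinase, had 10178 counts in DMSO, 8937 in enzastaurin, 8103 in paclitaxel and 3975 in the combination, a log2 ratio of -0.47 (-0.51 to -0.42). CRIM1, which encodes a membrane protein that binds BMPs, was at -0.34 (-0.38 to -0.29). The TEAD targets AMOTL2 (-0.28), AJUBA (-0.26) and CCN2 (-0.21) were nearer to 0, and the transcripts of the co-activators themselves were above it, with WWTR1 (TAZ) at 0.25 (0.13 to 0.36) and YAP1 at 0.10. Below the filter, ANKRD1, often used as a YAP target, had 43 counts in DMSO and 90 in paclitaxel. Of 21 actin cytoskeleton and SRF targets past the filter, 19 were below 0, against 3468 of all 6986 genes, with a median of -0.11. CNN3 (calponin 3) at -0.46 (-0.59 to -0.32) was the single member past the list limit. ACTB (beta-actin) stood at -0.18, and FHL2 was highest at 0.11 (-0.03 to 0.25). Of the 10 integrin entries past the filter, ITGA11, a collagen receptor chain, was higher at the list limit (0.40, 0.26 to 0.54), with a median of -0.07. ITGB1BP1, which the list's name pattern also took, encodes a binding partner and not an integrin.

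**Figure D4:**
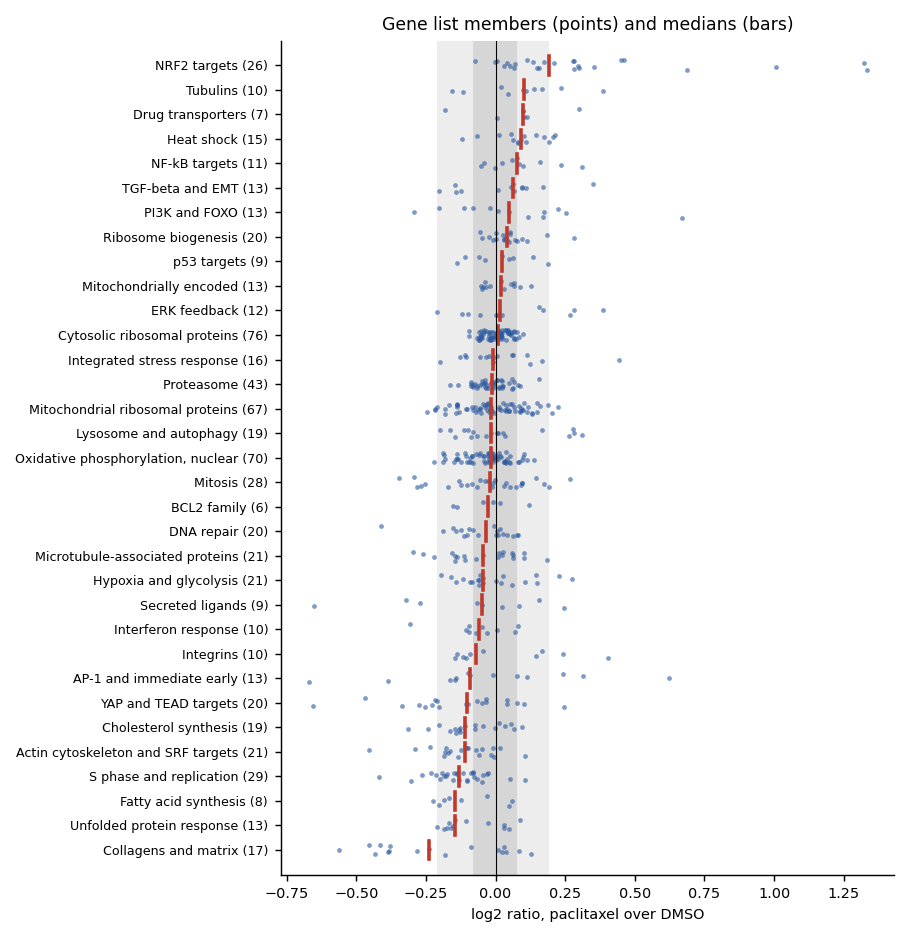
Log2 ratios in paclitaxel over DMSO of the members of each gene list past the filter (points, number in brackets) with the list median (red bar), ordered by median. Grey bands mark the middle 50% and 90% of all 6986 genes. The NRF2 list has the highest median (0.19) and collagens and matrix the lowest (-0.24).

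Tubulin genes, among them those for the alpha and beta subunits of the drug's target, had ratios mostly above 0. Of 16 tubulin genes 10 passed the filter and 8 of them were above 0, against 3518 of all 6986 genes, with a median of 0.10. TUBA4A, an alpha-tubulin, was the member past the list limit, with 3921 counts in DMSO, 4113 in enzastaurin, 5639 in paclitaxel and 4270 in the combination, a log2 ratio of 0.39 (0.33 to 0.45). The beta-tubulins followed in the order TUBB6 at 0.24 (0.18 to 0.29), TUBB2A at 0.17 (0.05 to 0.28), TUBB3 at 0.11 (0.04 to 0.17), TUBB4B at 0.10 (0.07 to 0.13) and TUBB at 0.02 (0.0040 to 0.03). TUBB3, an isotype often discussed in taxane resistance, had an interval that overlapped those of TUBB2A and TUBB4B. Below 0 were TUBG1, the gamma-tubulin that nucleates microtubules, at -0.16 (-0.23 to -0.08), and TUBA1C at -0.12 (-0.14 to -0.09), while TUBA1A was at 0.14 and TUBA1B at 0.04. The 3 TUBA1 genes are near-identical, and summed they stood at 0.0083 (-0.0047 to 0.02), with 90734 counts in DMSO and 100436 in paclitaxel. TUBB2A and its copy TUBB2B summed were at 0.18. Of 21 microtubule-associated genes past the filter none passed the list limit, from MAP1B at -0.29 and the tubulin cofactor gene TBCD at -0.26 to CLASP2 at 0.10 and the severing gene KATNA1 at 0.18, with a median of -0.04.

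Among drug transporters, ABCB1 had the highest ratio of 7 members past the filter, at 0.30 (0.25 to 0.35), under the list limit. The remaining members past the filter were ABCC3 at 0.11, ABCC1, ABCC4 and ABCC5 at 0.10, ABCC2 at 0.0042 and ABCG2, the breast cancer resistance protein, at -0.18 (-0.34 to -0.02), with a list median of 0.10. Below the filter, ABCC10 was at -0.24 (-0.44 to -0.04) and ABCB4 at -0.08 (-0.34 to 0.17), and SLCO1B3 had 0 counts in DMSO and 3 in paclitaxel.

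Cell cycle genes moved little. Of 29 S phase and replication genes past the filter 27 were below 0, against 3468 of all 6986 genes, with a median of -0.13, but GINS2, a subunit of the replicative helicase, was the single member past the list limit, at -0.42 (-0.57 to -0.27). GINS1 was at -0.30 (-0.42 to -0.19) and the helicase subunit gene MCM5 at -0.26, while the clamp loader gene RFC3 was highest at 0.10 (0.01 to 0.20). Of 28 mitotic genes past the filter 11 were above 0 and 17 below, with a median of -0.02. AURKB, the kinase of the chromosomal passenger complex, was the one past the list limit, at -0.35 (-0.51 to -0.19), and the ubiquitin-conjugating gene UBE2C followed at -0.29. AURKA, the centrosomal Aurora kinase, was at the other end at 0.27 (0.19 to 0.34), next to the mitotic cyclin gene CCNB1 at 0.19 (0.15 to 0.24). The 20 DNA repair genes had a median of -0.03, and RAD54L stood at -0.19 (0.03 in FPKM with a pseudocount of 1). Of 9 p53 targets past the filter none passed the list limit, from BAX at -0.14 to RRM2B at 0.19, and the cell cycle inhibitor gene CDKN1A was at -0.04 (-0.16 to 0.08). With no mean filter but 20 counts in the higher library, 2 of 18 p53 targets were higher at the list limit and 1 lower. BTG2 was at 0.86 (0.35 to 1.39), TIGAR at 0.67 (0.44 to 0.91) and FDXR at -0.41 (-0.69 to -0.14). Under that setting log2 ratios had a standard deviation of 0.32 over 11777 genes, against 0.13 with the filter. The share of all genes past the list limit was not computed there. The E2F motif GGCGGGAA was in a window of 7 of 24 matched S phase genes (29.2%) and 7.14% of all matched genes, and the TTTGAA motif of mitotic promoters in 14 of 22 matched mitotic genes (63.6%) and 818 of all 5827.

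Signalling lists were split within themselves. Of 13 AP-1 and immediate early genes JUNB was higher and JUND lower at 1.5-fold, KLF6, a zinc finger factor, was lower at the list limit (-0.39, -0.44 to -0.33), KLF10 stood at 0.31, and the median was -0.09. JUNB and JUND are members of the same family on chromosome 19, both GC-rich, and the GC and length trend, when removed, left JUNB at 0.73. Of 12 ERK feedback genes the ERK phosphatase gene DUSP6 was higher at the list limit, at 0.38 (0.23 to 0.54), SPRY4 was at 0.28 and SPRY2 at -0.21, with a median of 0.02. Of 9 secreted ligand genes past the filter NRG1 was lower at 1.5-fold, WNT5A stood at -0.32 (-0.45 to -0.19) and the EGFR ligand gene EREG at 0.25, with a median of -0.05. Among 11 NF-kB targets past the filter none passed the list limit, with SOD2, the mitochondrial superoxide dismutase, highest at 0.31 (0.28 to 0.34), BIRC3 at 0.23, CXCL2 lowest at -0.05 and a median of 0.08. With no mean filter 3 of 19 NF-kB targets were higher at the list limit and none lower. These were CCL20 at 1.24 (0.72 to 1.77), IL1A at 1.03 (0.41 to 1.68) and IL6 at 0.74 (0.20 to 1.31), with 44, 32 and 44 counts in DMSO. Without the mean filter the standard deviation of log2 ratios was 0.32 over 11777 genes, against 0.13 with it. The share of all genes past the list limit was not computed there, so these 3 calls have no background. In the TGF-beta and EMT list SKIL, a feedback repressor, was the one of 13 past the list limit, at 0.35, VIM (vimentin) was lowest at -0.20 (-0.22 to -0.19), and the median was 0.06. In the PI3K and FOXO list TXNIP was the member called, AKT2 was lowest of 13 at -0.29 (-0.37 to -0.21), PIK3R1 stood at 0.25, and the median was 0.05. With no mean filter 4 of 22 members were higher at the list limit and 0 lower, again without a share over all genes. Besides TXNIP these were PDK4 at 1.17 (0.61 to 1.75), SESN3 at 1.10 (0.58 to 1.63) and CCNG2 at 0.58 (0.31 to 0.85), with 38, 45 and 182 counts in DMSO. Of the BCL2 family 6 genes passed the filter, none beyond the list limit, from the survival gene BCL2L1 at -0.15 to BAK1 at 0.12, with a median of -0.03. The interferon list had a median of -0.06 over 10 members past the filter, none of them beyond the list limit, with OAS3 lowest at -0.31.

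Among members past the filter, stress and metabolic lists stayed within the list limit apart from CEBPB. CEBPB, a leucine zipper factor, stood at 0.44 (0.34 to 0.54) in the integrated stress response list, where SLC3A2 was at 0.17, PSAT1 lowest at -0.20 and the median of 16 members -0.01. Of 15 heat shock genes 13 were above 0, led by HSPH1 at 0.21 (0.16 to 0.27), with a median of 0.09, while 9 of 13 unfolded protein response genes were below 0, with PDIA4 lowest at -0.21 and a median of -0.14. Of all 6986 genes kept 3518 were above 0 and 3468 below. Below 0 among the heat shock genes were DNAJB1 at -0.12 (-0.22 to -0.02) and HSPB1 at -0.07 (-0.13 to -0.0048). Cholesterol synthesis genes had a median of -0.11 over 19 members, with INSIG1, a sterol sensor partner, lowest at -0.31. Fatty acid synthesis genes had a median of -0.14 over 8, with the transcription factor gene SREBF1 lowest at -0.23. Hypoxia and glycolysis genes had a median of -0.05 over 21, from P4HA2 at -0.19 to P4HA1 at 0.28, and lysosome and autophagy genes -0.02 over 19, with CTSL (cathepsin L) highest at 0.31. Lists of the basal machinery were narrow, with medians of 0.0090 for 76 cytosolic ribosomal protein genes, -0.02 for 67 mitochondrial ribosomal protein genes, -0.02 for 70 nuclear oxidative phosphorylation genes, 0.02 for 13 mitochondrially encoded genes, -0.01 for 43 proteasome genes and 0.04 for 20 ribosome biogenesis genes. None of the members of these 6 lists passed the list limit, and the widest were PNO1, a ribosome assembly gene, at 0.28 and MRPS6 at -0.25.

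Combination over enzastaurin holds the same difference in paclitaxel and shares no library with paclitaxel over DMSO, but was made in cells that also received enzastaurin. It was wider, with 146 genes higher at 1.5-fold (2.09%), 612 lower (8.76%) and a standard deviation of log2 ratios of 0.40. All 6 genes called lower by paclitaxel alone were below 0 there and past 1.5-fold, where 45.4% of all genes were below 0. Of the 13 called higher, 11 were above 0 and 5 past 1.5-fold, where 54.6% of all genes were above 0. The 5 were HMOX1 at 1.69, AKR1C2 at 1.52, AKR1C1 at 1.51, AKR1C3 at 0.95 and MAGEA2 at 0.66. Summed with MAGEA2B, MAGEA2 was at 0.39 (0.31 to 0.47) there, under 1.5-fold. At the list limit 48 of 60 higher genes and 82 of 86 lower genes had the same sign in both comparisons. CPA4 was at -3.25 (-3.56 to -2.96) there, CCN1 at -2.31 and JUND at -2.09, against -1.11, -0.66 and -0.67 for paclitaxel alone, while CCBE1 was at -0.62 against -0.73. DCN, PDGFRA and TXNIP were at 0.36, 0.45 and 0.54, below their values for paclitaxel alone, and TRIB2 was at 0.02 (-0.15 to 0.19). Across the 6986 genes the log2 ratios of both comparisons had a Pearson r of 0.48 and a Spearman rho of 0.43, given as a description since genes are not replicates.

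**Figure D5:**
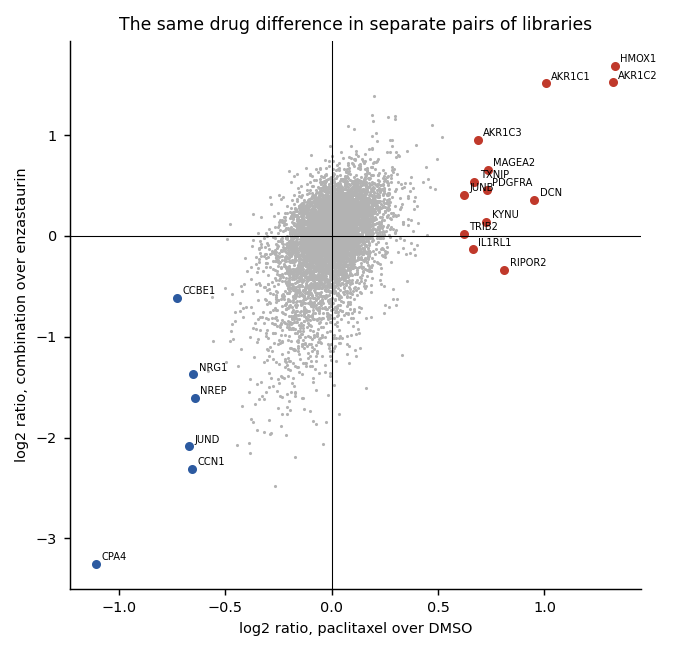
Log2 ratio in combination over enzastaurin (vertical axis) against that in paclitaxel over DMSO (horizontal axis) for 6986 genes, each axis from its own pair of libraries. All 6 lower genes (blue) lie below 0 on both axes, and of the 13 higher genes (red) RIPOR2 and IL1RL1 lie below 0.

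Ratios moved with the GC content of the transcript. Across 6981 genes with an annotated transcript the log2 ratio in paclitaxel over DMSO had a Spearman rho of -0.39 with GC content and 0.14 with length. With GC content, rho was -0.53 in enzastaurin over DMSO, which shares the DMSO library. It was 0.015 in combination over enzastaurin, which does not use the DMSO library. Whether the trend lies in the DMSO library or in the drug treatments was not tested. In 5 bins of near-equal gene number the median log2 ratio was 0.05 in the bin lowest in GC and -0.08 in the highest. The genes higher at the list limit had a median GC content of 43.1% and the lower ones of 55.1%, against 47.2% over all genes kept. The part of GC content in these calls was not tested beyond removing the trend, which kept all 13 higher calls and 5 of the 6 lower ones, without JUND. Under that correction 6 genes were lower in all.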

How the data were processed

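Total RNA of SUM159-R cells was, per the labels, primed at random for cDNA and read on an Illumina instrument as 4 libraries. The authors deposited 1 table of 20289 genes with expected counts and FPKM for each library. The submitters' processing notes name RSEM and hg38. Not given in the sources used here were the aligner, tool versions, annotation release and use of strand. Depth was not scaled in the expected counts as deposited, and they were rounded to whole numbers for this work. Deposited FPKM values were scaled by the authors for length and depth and served as an alternative.

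Counts were scaled with TMM factors (edgeR 4.0.16, factors from 0.988 to 1.006), and CPM divide a count by the total times its factor. Each ratio has an exact conditional (Clopper-Pearson) interval at 95%. The limit that 0 counts allow is 3 counts, or 0.121 to 0.166 CPM per library. No p was computed, because each condition has 1 library. Calls were checked on simulated counts with known ratios and counting error only. That check holds no spread between cultures, so it cannot show how calls fare against such spread.

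Named by rule were the 15 highest and 15 lowest genes, the 2 highest and 2 lowest of each of 33 lists, all tubulins and drug transporters past the filter, AURKB and ABCB1. Other list members were named after their values were seen. A few genes that the rule takes are not reported here. The members and lists were chosen with earlier results of these data known. Positions, transcript length and GC content came from GENCODE 29. Genes share reads where the longest transcripts align at 95% identity or more over 300 bases (blastn 2.17.0). Promoter windows are from RefSeq, and a gene counts as holding a motif if any of its windows does, both strands searched. Alternatives were DESeq2 1.42.0 size factors, library totals, other filters and limits, FPKM with a pseudocount of 1 or 0.1, and removal of a cubic trend in length and GC content. Leaving out genes that share reads was chosen after seeing the data.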

Additional observations from a re-analysis of the deposited data

Results flagged for a closer look

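In 2 of the 30 genes at the ends of the ranking, paclitaxel over DMSO and combination over enzastaurin lay on opposite sides of 0 with counting intervals that both excluded it. RIPOR2 was at 0.81 (0.73 to 0.90) in paclitaxel over DMSO and at -0.34 (-0.46 to -0.21) in combination over enzastaurin, with 74.3 CPM in DMSO, 62.4 in enzastaurin, 130 in paclitaxel and 49.4 in the combination. IL1RL1 was at 0.66 (0.57 to 0.76) and at -0.13 (-0.27 to -0.0031), with 59.0, 50.4, 93.4 and 45.9 CPM in the same order. The difference between both comparisons was not tested, because each condition has 1 library.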

How the results depend on the processing

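The counts of 13 higher and 6 lower genes stayed within 1.5 times under DESeq2 size factors, library totals, both FPKM settings, removal of the length and GC trend, and without genes that share reads (9 higher and 6 lower). They moved with the filter and the limit. A mean of 100 counts gave 52 higher and 23 lower, no mean filter 199 and 122, and a mean of 1000 counts 2 lower. The list limit gave 60 and 86, one of 2-fold 3 and 1, and intervals wholly beyond 1.5-fold left 2 lower. Of 264 values of list medians under an alternative, 250 lay within the members' median counting interval. The collagen and matrix median of -0.24 was -0.18 at a mean of 100 counts, -0.10 with no mean filter, -0.17 in FPKM with a pseudocount of 1, -0.17 with 0.1 and -0.19 with the trend removed. With the trend removed, tubulins were at 0.16, AP-1 and immediate early genes at -0.025, fatty acid synthesis at -0.090, actin and SRF targets at -0.072, mitochondrially encoded genes at 0.0039, and hypoxia and glycolysis at 0.0032, the opposite sign. With no mean filter the AP-1 median was -0.0098 and that of secreted ligands 0.094, and at a mean of 1000 counts the latter was 0.083. The cause was not tested. Low counts widen the intervals and set which genes can be called. No paired analysis was possible because no condition has a replicate.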

Other observations

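Among 3111 genes with a mean of 100 to under 500 counts, outside the filter, 39 were higher and 17 lower at 1.5-fold. The genes named here were chosen after their values were seen. HPGD, which degrades prostaglandins, had 61 counts in DMSO, 124 in enzastaurin, 173 in paclitaxel and 73 in the combination, a log2 ratio of 1.37 (0.94 to 1.81) in paclitaxel over DMSO. The BH3-only genes of the BCL2 family, whose products trigger apoptosis, differed among themselves. BCL2L11 (BIM) had 71 and 170 counts in DMSO and paclitaxel, and below a mean of 100 counts PMAIP1 (NOXA) had 59 and 119, a log2 ratio of 0.87 (0.41 to 1.35). BMF had 73 and 139 counts, a log2 ratio of 0.79 (0.37 to 1.22). PMAIP1 had 55 counts in enzastaurin and 127 in the combination, and BMF had 69 and 78. BBC3 (PUMA) was at 0.05 (-0.72 to 0.84) with 28 counts in DMSO and 32 in paclitaxel, BAD at -0.13 (-0.32 to 0.06), BID, past the filter, at -0.04 (-0.15 to 0.06), and BIK and HRK had at most 1 count in any library. The stress factor gene DDIT3 (CHOP) was at 0.81 (0.43 to 1.20), the TXNIP relative ARRDC4 at 0.76 (0.44 to 1.09), the EGFR ligand gene AREG at 0.75 (0.40 to 1.11) and the acute phase gene SAA1 at 0.74 (0.55 to 0.92). Lower were WNT3, a Wnt ligand, at -1.04 (-1.41 to -0.69) and the phosphatase gene DUSP8 at -0.87 (-1.20 to -0.54). SMIM11A and its near-identical copy SMIM11B went in opposite directions, with 15 and 322 counts for SMIM11A and 314 and 45 for SMIM11B in DMSO and paclitaxel. In enzastaurin and the combination SMIM11A had 284 and 11 counts and SMIM11B 41 and 282. SMIM11A was thus high in enzastaurin and paclitaxel, and SMIM11B in DMSO and the combination, an order that does not follow paclitaxel. Reads may be split between these copies.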
